A study of Homo sapiens with 9 samples.

Results

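ATP-binding cassette (ABC) transporter genes were followed in ARPE-19 cells, an established human retinal pigment epithelial line, given vehicle or 1 of 2 doses of cigarette smoke condensate. The family was taken as every gene whose symbol reads ABC, a subfamily letter from A to G and a number, on a probe set that the platform annotation gives to that gene alone. This gave 39 genes among the 14207 measured, 38 of them protein-coding and 1 a pseudogene (ABCC13). The RefSeq table lists 45 protein-coding genes with such symbols. Of these, ABCB6, ABCC8, ABCC11 and ABCF1 shared their probe sets with other genes and were left out, and the few others without a value were not analysed here. No member had a second probe set of its own, so each is read by 1 value per array.

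The 3 groups held 3 arrays each: vehicle control, condensate at 100 µg/ml and condensate at 250 µg/ml. All 9 came from 1 cell line grown to confluence in serum and then kept in medium with albumin in its place, and no group differed from another in genotype. The condensate was a commercial preparation from research cigarettes, dissolved in DMSO per the labels. The labels do not give the length of exposure, and they do not say that arrays of a group came from separate cultures. The p-values below are thus set by how far these arrays of a group scatter, and that scatter may be technical only.

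ABC proteins use the energy of ATP to move substrates across membranes. Subfamily A and part of subfamily G carry lipids and sterols. Subfamilies B and C, with ABCG2, hold the multidrug pumps that expel drugs and the glutathione, glucuronide and sulphate conjugates made from toxic compounds. Subfamily D serves peroxisomes and lysosomes, while subfamilies E and F lack membrane domains and act on ribosomes. In the retina the family is best known for ABCA4, which clears retinoid intermediates of the visual cycle, and for ABCA1, which passes cholesterol to apolipoprotein A-I.

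The first principal component, with 38.3% of the variance, held controls 1 and 3 at 17.4 and 15.4, with control 2 apart from them at 45.4. Treated arrays 1 and 2 lay between -24.5 and -21.0. Treated array 3 lay at 5.78 for 100 µg/ml and 4.28 for 250 µg/ml, on the side of the controls, so values without them are given for ABCB5, ABCG2, ABCD3, ABCE1 and ABCF2, where array 3 of a dose lay at or near the controls. HMOX1, the inducible haem oxygenase that serves here as a check of exposure, rose at both doses (limma, adjusted p = 0.0485 and 0.00418). Of the other checks, SLC7A11 (adjusted p = 0.0475 and 0.00889) and CYP1A1 (0.00507 and 0.0081) also rose at both. GCLM rose at 250 µg/ml (0.0197) and did not pass at 100 µg/ml (0.130). The HMOX1 and SLC7A11 values at 100 µg/ml lie near the threshold of 0.05. With only the 6 arrays of that comparison, 1 gene of the 14207 was called instead of 9. Of 11 markers of retinal pigment epithelium, 10 were measured. KRT8 (10.3 to 11.5) and MITF (6.76 to 7.81) read high on the log2 scale, while RPE65 and BEST1, which mark the mature tissue, were below the lower quartile of genes on all 9 arrays. The summed log2 level of the 10 markers ran from 54.2 to 57.9 in controls. The lower dose gave 51.0 to 52.8 and the higher 50.0 to 53.1, so neither overlapped the controls, and 0 of 10 markers passed the test.

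None of the 39 genes with an ABC symbol passed the test at either dose. The members farthest above vehicle were ABCC3, a basolateral pump for glucuronide and bile salt conjugates, at 2.32 and 2.47 times the control level, and ABCG2, the breast cancer resistance protein. ABCB5, a pump of the P-glycoprotein branch known from melanoma cells, lay farthest below vehicle, by 4.72-fold at 100 µg/ml and 7.17-fold at 250 µg/ml, with a wide interval. The sterol exporter ABCA1 and the mitochondrial protein ABCB8 lay above every control array at both doses, and the P-glycoprotein gene ABCB1 lay below every control array at both, from a level close to the floor of the arrays.

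At 100 µg/ml, 0 of 39 members had an adjusted p under 0.05 in limma's test, where 0.0633% of all 14207 genes did. At an unadjusted p under 0.05 the count was 10 members (25.6%, 4 higher and 6 lower) beside 14.6% of all genes (7% higher, 7.65% lower). Nor did any of 39 pass at 250 µg/ml: the count was 0 where 0.549% of all genes were called, and 11 (28.2%, 7 higher and 4 lower) had an unadjusted p under 0.05 beside 16.6% of all genes (8.74% higher, 7.9% lower). Between the doses 0 members and 0% of genes passed. At an unadjusted p under 0.05, 1 member, ABCF3, was higher at the higher dose, beside 1.84% of all genes (0.985% higher, 0.859% lower). The comparisons with vehicle share the same 3 controls and are not independent of each other.

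All 3 arrays at 100 µg/ml lay outside the range of the controls for 15 members (38.5%, 7 higher and 8 lower), beside 18.3% of all genes (6.41% higher, 11.9% lower). The same held at 250 µg/ml for 14 members (35.9%, 5 higher and 9 lower) beside 22.9% of all genes (8.61% higher, 14.3% lower). ABCA1, ABCB8 and ABCC3 were above all controls at both doses (7.69% of members, 4.29% of all genes). ABCA8, ABCA9, ABCA12, ABCB1 and ABCC13 were below all controls at both (12.8% of members, 7.1% of all genes). The median log2 difference over the 39 members was -0.06 at 100 µg/ml and -0.05 at 250 µg/ml, beside -0.05 and -0.04 over all genes.

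**Figure D1:**
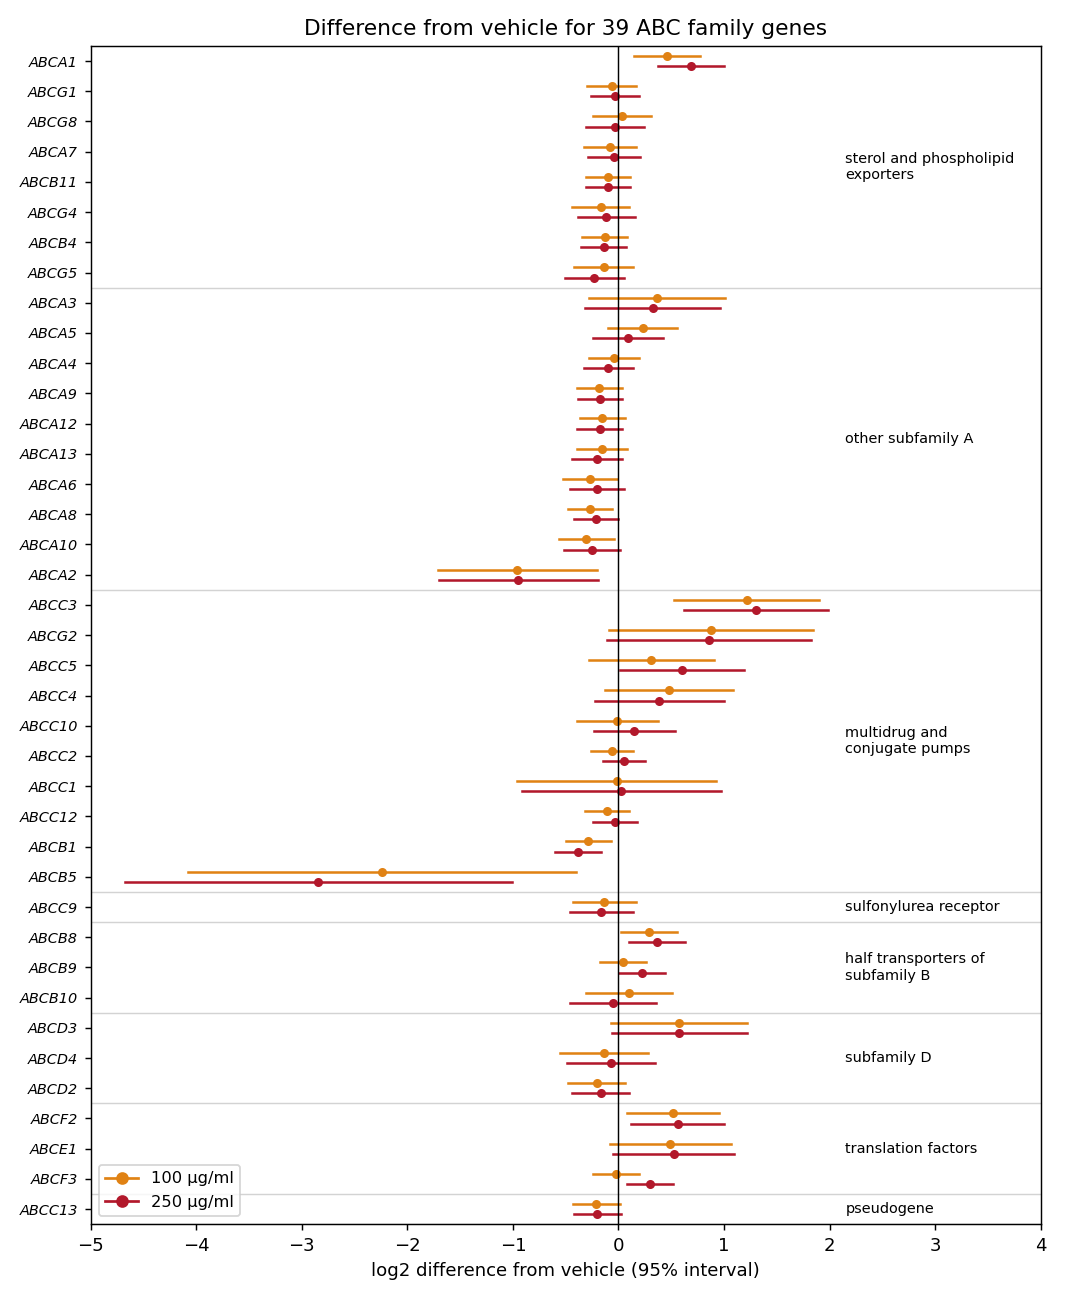
Log2 difference from vehicle (x axis, treated mean minus control mean, 3 arrays a group) for the 39 ABC genes, grouped by role. Points are limma estimates at 100 µg/ml (orange) and 250 µg/ml (red) and bars are 95% intervals, before any adjustment for the number of genes. ABCC3 lies farthest to the right and ABCB5 farthest to the left.

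The level of a gene split the family. A gene was counted as dim when its mean over the 9 arrays lay below the lower quartile of all genes, 3.06 on the log2 scale, and 17 members were dim. Of these, 16 lay below vehicle at each dose, with median differences of -0.15 and -0.17. Dim genes as a whole showed the same direction, with 2969 of 3552 below vehicle at the lower dose and 2926 at the higher, and medians of -0.11 and -0.10. Among the 22 brighter members, 13 lay above vehicle at 100 µg/ml and 15 at 250 µg/ml (59.1% and 68.2%), where 48.9% and 51.1% of the 10655 brighter genes did. Their median difference was 0.16 and 0.26, beside -0.01 and 0.01 for brighter genes. The arrays' own lower quartiles were 3.04 to 3.10 in controls and 2.89 to 3.09 in treated samples.

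**Figure D2:**
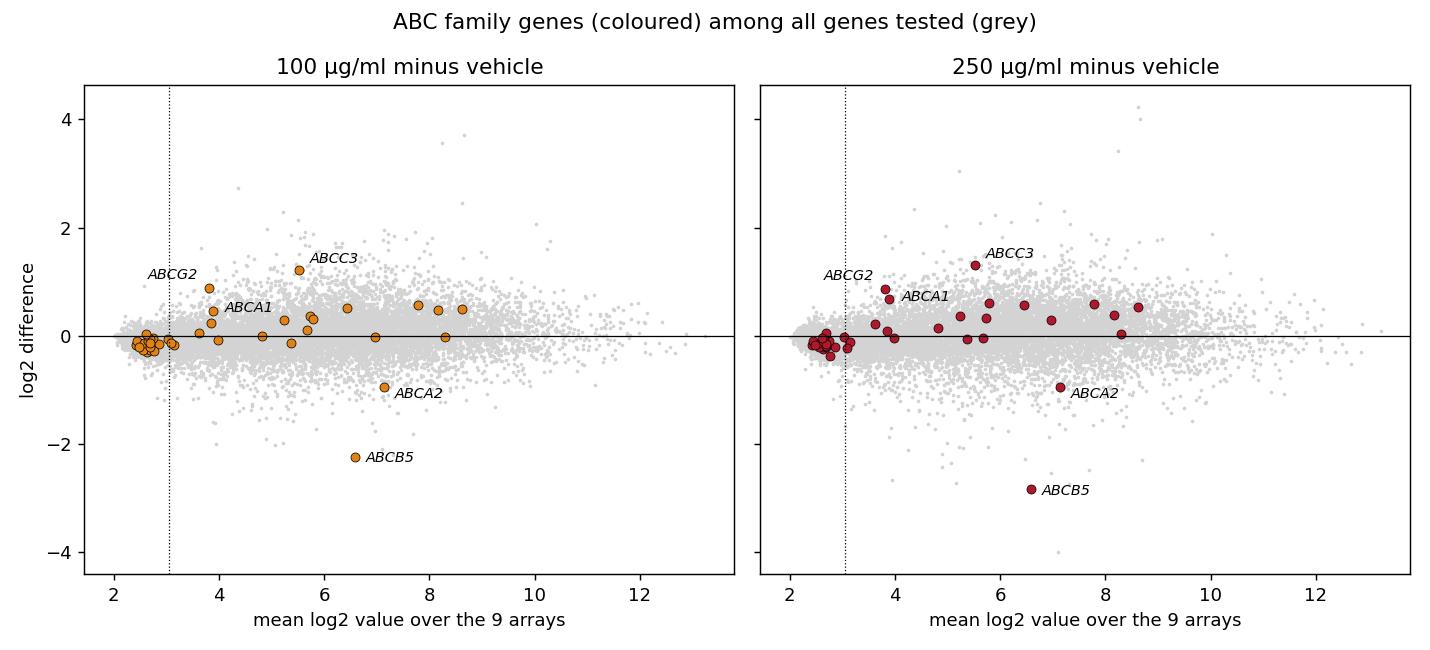
Log2 difference from vehicle (y axis) against mean log2 value over the 9 arrays (x axis) at 100 µg/ml (left) and 250 µg/ml (right), with the 39 ABC genes coloured over all 14207 genes in grey. The dotted line marks the lower quartile of gene means, 3.06, and the dim members to its left sit almost wholly below zero, as the dim grey genes mostly do.

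Among the multidrug and conjugate pumps, 10 genes were measured, and their log2 differences ran from -2.24 (ABCB5) to 1.22 (ABCC3) at the lower dose and from -2.84 to 1.30 at the higher. ABCC3 (probe set 3726691) read 5.30, 3.99 and 4.73 in the controls, 5.97, 6.02 and 5.68 at 100 µg/ml, and 5.75, 5.92 and 6.26 at 250 µg/ml. Every treated array lay above every control array, and the controls were the more scattered group. Its log2 difference at 100 µg/ml was 1.22 ± 0.30 (SE, n = 3 per group), 2.32-fold (95% interval 0.53 to 1.90, adjusted p = 0.199). The higher dose gave 1.30 ± 0.30, 2.47-fold (0.62 to 1.99, adjusted p = 0.088). Ranked from the highest difference, ABCC3 stood 89th of 14207 genes at 100 µg/ml and 65th at 250 µg/ml. Control arrays 1 and 2 weighed on the estimate: without control 1 it was 1.61 at 250 µg/ml, with an adjusted p of 0.0437, and without control 2 it was 0.96, with an adjusted p of 0.123.

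ABCG2 (probe set 2777276), which exports drugs, urate and porphyrins, read 3.19, 2.89 and 3.64 in the controls. At 100 µg/ml it read 4.77, 4.35 and 3.23, and at 250 µg/ml 4.67, 4.10 and 3.53. Treated arrays 1 and 2 were above all controls, while array 3 of each dose fell within the control range. ABCG2 differed from vehicle by 0.87 ± 0.42 (95% interval -0.09 to 1.84, adjusted p = 0.384) at 100 µg/ml and 0.86 ± 0.42 (-0.11 to 1.83, adjusted p = 0.348) at 250 µg/ml. Without the treated arrays numbered 3, a setting added after the data had been seen, it was 1.32 and 1.14, with adjusted p = 0.111 at both doses. Without array 1 of the dose it was 0.55 and 0.57.

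ABCB5 (probe set 2991995) read 8.53, 7.67 and 8.63 in the controls, 5.10, 5.08 and 7.93 at 100 µg/ml, and 4.81, 4.83 and 6.65 at 250 µg/ml. Treated arrays 1 and 2 stood far below the controls, array 3 at 250 µg/ml stood below them by less, and array 3 at 100 µg/ml lay between control 2 and the other controls. The log2 difference was -2.24 ± 0.80 at 100 µg/ml (95% interval -4.07 to -0.40, adjusted p = 0.274), rank 1 from the lowest of 14207 genes in the fit on all 9 arrays. The difference at the higher dose was -2.84 ± 0.80 (-4.68 to -1.01, adjusted p = 0.146), rank 2 from the lowest. Without the treated arrays numbered 3 the differences were -3.18 (9.08-fold lower, adjusted p = 0.0213) and -3.45 (10.9-fold lower, adjusted p = 0.0118). Both passed the threshold in that setting, which was added after the data had been seen. These are the treated arrays nearest the controls, so leaving them out enlarges the difference by construction, and the pass adds no support. Leaving out array 1 or 2 at 100 µg/ml instead gave -1.77 and -1.76. The summed pigment epithelium markers given above were also lower in treated arrays than in controls, and their part in the ABCB5 difference was not tested. All arrays came from 1 cell line. In a bulk sample of it, fewer cells expressing a gene and less RNA per cell cannot be told apart.

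ABCB1 (probe set 3060182), the P-glycoprotein gene, read 3.03, 2.98 and 2.97 in the controls, 2.74, 2.66 and 2.72 at 100 µg/ml, and 2.56, 2.52 and 2.74 at 250 µg/ml. Every treated array lay below every control array, and all 9 values were below the lower quartile of their array. For ABCB1 the difference was -0.28 ± 0.095 (adjusted p = 0.264) at 100 µg/ml and -0.39 ± 0.095 (adjusted p = 0.102) at 250 µg/ml. With arrays quantile-normalized again it was -0.17 and -0.28. The dim genes as a whole moved in the same direction, as given above, and the part of that shift in ABCB1 was not tested.

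ABCC1, the main exporter of glutathione conjugates, read 8.89, 8.80 and 7.18 in the controls, 8.16, 8.18 and 8.49 at 100 µg/ml, and 8.07, 8.23 and 8.65 at 250 µg/ml. All treated arrays lay inside the control range, which control 3 alone made wide. Differences of -0.02 ± 0.41 (95% interval -0.96 to 0.93) and 0.03 ± 0.41 (-0.92 to 0.97) left room for nearly 2-fold either way. Its sign turned in several settings. ABCC4, an exporter of cyclic nucleotides and prostaglandins chosen after its values were seen, had differences of 0.48 and 0.39, which became 0.12 and 0.03 without control 2, whose value of 7.16 stood below the other controls at 8.25 and 8.23. ABCC5, a related cyclic nucleotide exporter also chosen after its values were seen, differed by 0.31 ± 0.26 and 0.60 ± 0.26. These became 0.58 and 0.87 without control 1 and 0.16 and 0.45 without control 3. Of the other pumps, ABCC2, ABCC10 and ABCC12 lay between -0.10 and 0.15 at both doses.

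**Figure D3:**
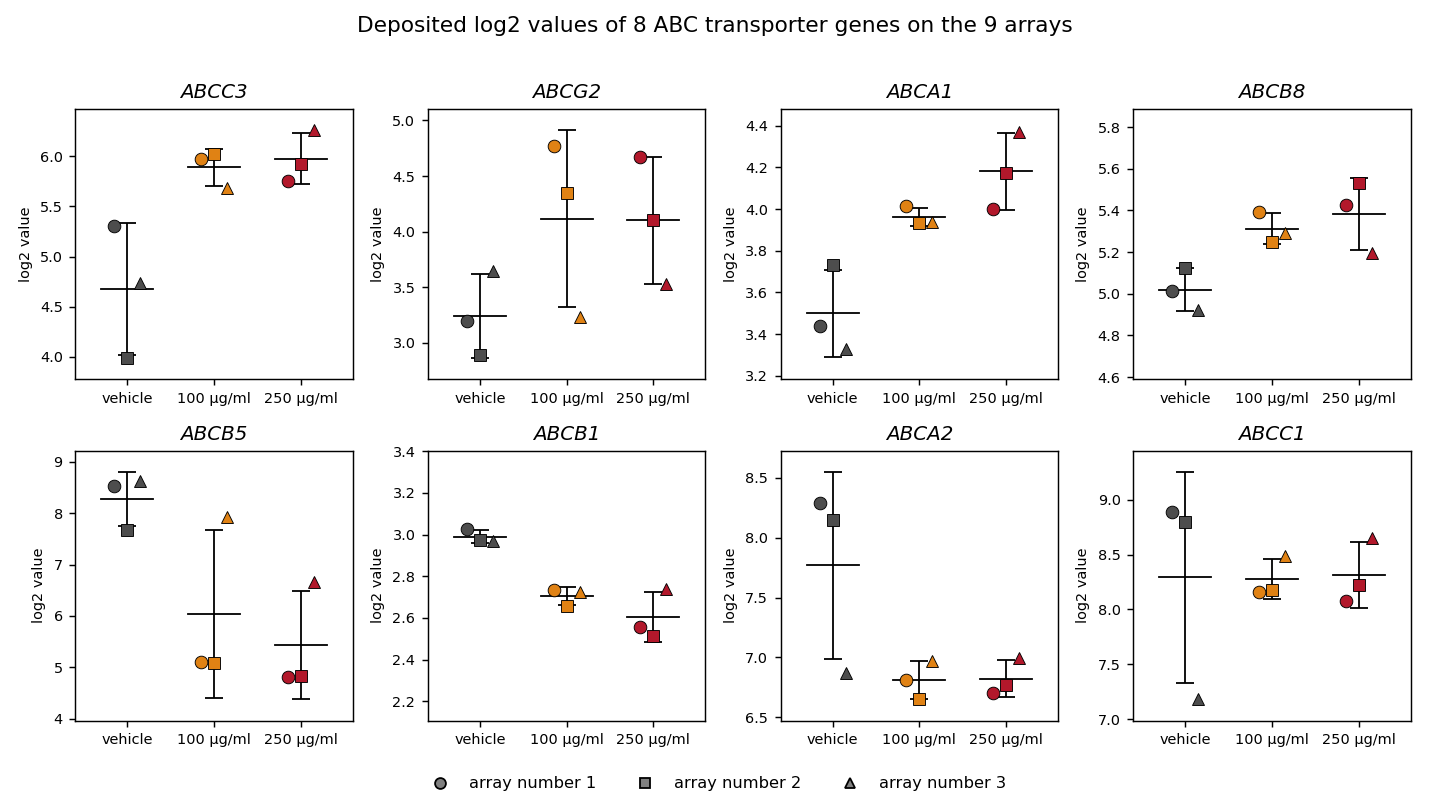
Deposited log2 values (y axis, scale differs by panel) of 8 ABC genes on the 9 arrays, by group (x axis). Circles, squares and triangles are arrays numbered 1, 2 and 3, and bars give the group mean and 1 SD (n = 3). ABCC3, ABCA1 and ABCB8 lie above all controls at both doses, ABCB1 lies below, and array 3 of each dose sits nearer the controls in ABCB5 and ABCG2.

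The 8 sterol and phospholipid exporters held 1 gene, ABCA1, that stood apart from the controls at both doses. ABCA1 (probe set 3218528) read 3.44, 3.73 and 3.33 in the controls, 4.01, 3.93 and 3.94 at 100 µg/ml, and 4.00, 4.17 and 4.37 at 250 µg/ml. No treated array overlapped the controls. ABCA1 differed from vehicle by 0.46 ± 0.14 (95% interval 0.15 to 0.78, adjusted p = 0.219) at 100 µg/ml. The difference at 250 µg/ml was 0.68 ± 0.14, 1.61-fold (0.37 to 1.00, adjusted p = 0.066). The call at 250 µg/ml turned on the setting: the adjusted p was 0.0478 after quantile normalization and 0.0482 with array weights, and ranged from 0.0478 to 0.219 over 17 alternatives. The remaining 7 exporters, among them the cholesterol exporters ABCG1 and ABCG4, the bile salt pump ABCB11 and the phosphatidylcholine translocator ABCB4, lay between -0.17 and 0.03 at the lower dose and between -0.23 and -0.03 at the higher.

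Of 13 genes listed as partners of sterol efflux (liver X receptors, their dimer partners, targets and acceptors), 9 were measured and 0 passed the test at either dose. LPCAT3, an enzyme that remodels phospholipids and a target of these receptors like ABCA1, read 7.58, 6.97 and 7.49 in the controls, 7.96, 8.16 and 8.43 at 100 µg/ml, and 8.19, 8.32 and 8.73 at 250 µg/ml. Its arrays did not overlap the controls at either dose, and the log2 difference was 0.84 ± 0.21 (adjusted p = 0.199) and 1.07 ± 0.21 (adjusted p = 0.066). MYLIP, another target, which degrades the LDL receptor, had differences of the other sign, -0.51 ± 0.15 (adjusted p = 0.219) and -0.70 ± 0.15 (adjusted p = 0.076). RXRB and SCARB1 differed by -0.35 and 0.32 at 250 µg/ml, and neither passed. Over the 9 measured genes the median difference was -0.04 at 100 µg/ml and 0.05 at 250 µg/ml. Of these genes, 3 lay above vehicle at the lower dose and 5 at the higher.

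Of the 8 members that stood outside the controls at both doses, 3 are shown by their regulatory sequence. The 250 bases before the start of ABCA1, ABCB8 and ABCB1 are given from the RefSeq promoter table (GRCh38.p14). They are read 5′ to 3′ on the strand of the gene. Capitals mark matches on either strand to any of 6 motifs. The E-box was searched as CACGTG. The GC box was searched as GGGCGG. The core of the antioxidant response element was searched as TGACNNNGC. The core of the xenobiotic response element was searched as GCGTG. The other two were the CCAAT box and the TATA box, searched as TATAAA. For ABCB1, 1 of 2 listed starts is shown, the downstream one. The window before the other ABCB1 start held 0 matches to each of the 6 motifs.
ABCA1, chr9:104928156-104928405, minus strand: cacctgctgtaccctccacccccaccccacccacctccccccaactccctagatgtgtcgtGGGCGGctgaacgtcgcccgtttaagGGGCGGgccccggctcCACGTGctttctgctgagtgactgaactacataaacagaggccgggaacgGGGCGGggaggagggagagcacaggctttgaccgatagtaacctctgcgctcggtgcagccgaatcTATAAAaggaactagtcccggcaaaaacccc
ABCB8, chr7:151028200-151028449, plus strand: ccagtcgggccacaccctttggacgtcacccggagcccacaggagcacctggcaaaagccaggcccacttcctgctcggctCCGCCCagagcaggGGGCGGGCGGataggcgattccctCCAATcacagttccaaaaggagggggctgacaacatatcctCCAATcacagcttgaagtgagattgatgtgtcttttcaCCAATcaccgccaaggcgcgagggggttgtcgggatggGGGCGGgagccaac
ABCB1, chr7:87600885-87601134, minus strand: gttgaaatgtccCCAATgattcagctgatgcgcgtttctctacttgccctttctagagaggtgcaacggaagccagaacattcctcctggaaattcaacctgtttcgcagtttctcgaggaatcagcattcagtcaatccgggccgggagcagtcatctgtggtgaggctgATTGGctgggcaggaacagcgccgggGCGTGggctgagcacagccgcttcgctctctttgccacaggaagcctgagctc

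The ABCA1 window holds 1 E-box, 3 GC boxes and 1 TATAAA that starts 31 bases before the transcript. In windows of the same length before all 35116 listed starts, an E-box was present in 6.34%, a GC box in 42.6% and TATAAA in 10.7%. The ABCB8 window holds 4 GC boxes, of which 2 overlap each other, and 3 copies of CCAAT, a motif present in 32% of windows. The ABCB1 window holds 1 xenobiotic response core, present in 32.2% of windows, and 2 copies of CCAAT. The antioxidant response core, present in 10.9% of windows, was not found in these 3. No site for liver X receptors was among the motifs searched, so the marking does not say whether a window holds one. A match describes letters in the window and does not show a bound site.

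The other 10 members of subfamily A lay between -0.96 (ABCA2) and 0.37 (ABCA3) at the lower dose and between -0.95 and 0.32 at the higher, with 8 of 10 below vehicle at each dose. ABCA2 (probe set 3230610), an endolysosomal lipid transporter chosen for description after its values were seen, read 8.29, 8.15 and 6.87 in the controls, 6.81, 6.65 and 6.97 at 100 µg/ml, and 6.70, 6.77 and 6.99 at 250 µg/ml. Controls 1 and 2 stood well above all treated arrays, while control 3 lay among them. Its difference from vehicle was -0.96 ± 0.33 (adjusted p = 0.271) at 100 µg/ml and -0.95 ± 0.33 (adjusted p = 0.219) at 250 µg/ml. Without control 3 it was -1.41 (adjusted p = 0.0291) and -1.40 (adjusted p = 0.0147), past the threshold at both doses. Control 3 was also the outlying control for ABCC1.

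ABCA4, the retinal transporter, read 2.84, 2.79 and 2.74 in the controls, 2.90, 2.73 and 2.60 at 100 µg/ml, and 2.71, 2.64 and 2.73 at 250 µg/ml. All 9 values were below the lower quartile of their array, with overlap at 100 µg/ml and all arrays at 250 µg/ml just below the controls. Its log2 difference was -0.04 ± 0.10 and -0.09 ± 0.10, and the sign turned to 0.07 and 0.02 after quantile normalization. Of 4 listed photoreceptor markers, 2 were measured. The arrestin gene SAG was below the lower quartile on all 9 arrays, and the phosphodiesterase gene PDE6B was below it on 0 of 9, at 4.19 to 4.56. Their summed log2 level was 7.24 to 7.36 in controls, 6.96 to 7.22 at the lower dose and 6.88 to 7.11 at the higher, and neither marker passed the test.

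ABCA8, ABCA9, ABCA6 and ABCA10, which adjoin each other in the genome and are close in sequence, were all below the lower quartile on every array. ABCA8 read 2.70, 2.75 and 2.73 in the controls, 2.52, 2.38 and 2.47 at 100 µg/ml, and 2.50, 2.43 and 2.60 at 250 µg/ml. ABCA10 read 2.69, 2.98 and 2.76, then 2.56, 2.45 and 2.51, then 2.47, 2.51 and 2.72 in the same order. ABCA6 read 2.78, 2.96 and 2.81, then 2.68, 2.50 and 2.56, then 2.59, 2.53 and 2.81. The lower dose put the treated arrays of all 4 genes below all their controls, and the higher dose did so for ABCA8 and ABCA9. Differences ran from -0.31 (ABCA10, adjusted p = 0.290) to -0.18 (ABCA9, adjusted p = 0.404), and from -0.25 to -0.17 at the higher dose. How far probes can tell related genes apart is not given here, so these values are uncertain, and 980 of the 3552 dim genes likewise lay below all controls at 100 µg/ml. The fifth gene of the run, ABCA5, was brighter and differed by 0.23 and 0.09.

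**Figure D4:**
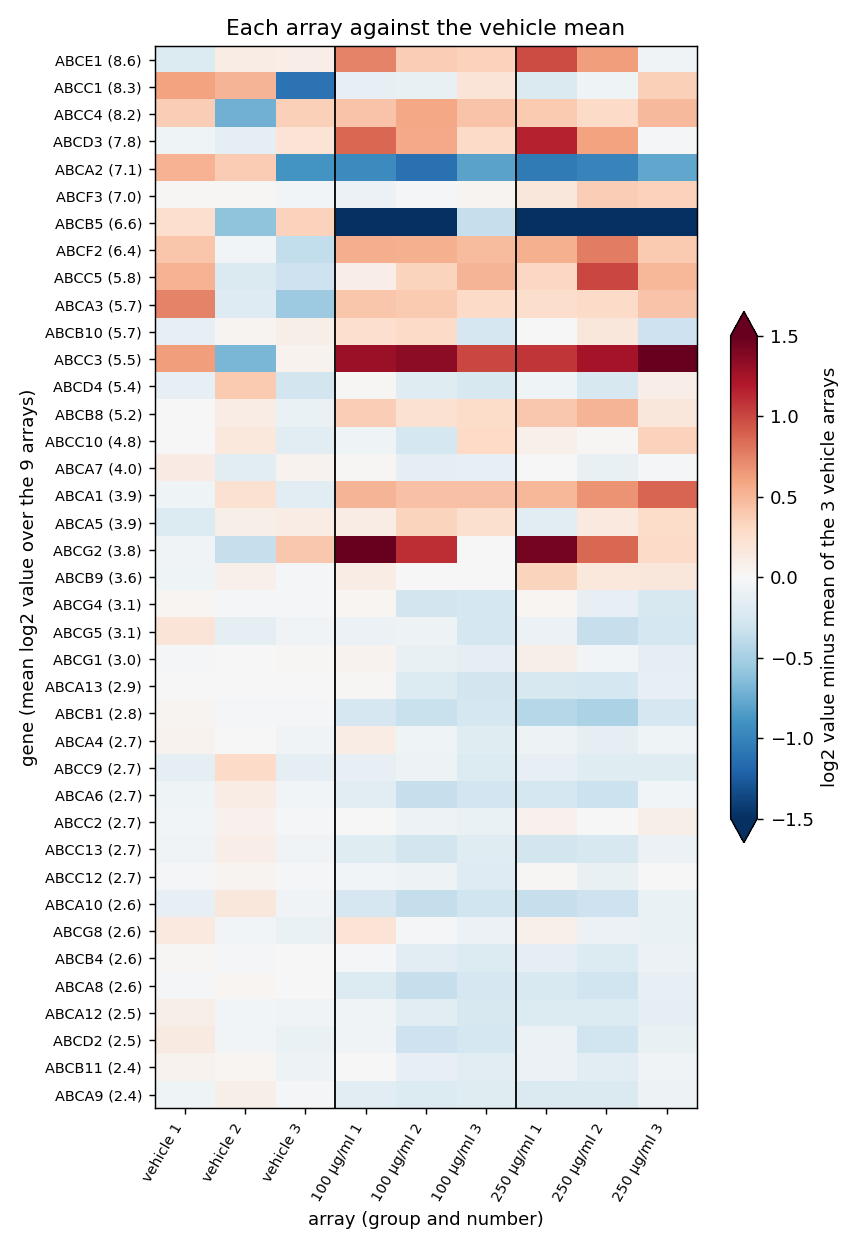
Log2 value on each of the 9 arrays (columns) minus the mean of the 3 vehicle arrays, for the 39 ABC genes (rows) ordered by mean log2 value, which is given in brackets. Colours stop at -1.5 and 1.5. Blue in control 3 for ABCC1 and ABCA2 and in control 2 for ABCC4 shows which control sets their spread. For ABCC3, control 1 lies above the vehicle mean and control 2 below it. The lower rows, which are dim genes, are faintly blue in treated columns.

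Of the mitochondrial and lysosomal members of subfamily B, ABCB8, which sits in the inner mitochondrial membrane, read 5.01, 5.13 and 4.92 in the controls, 5.39, 5.25 and 5.29 at 100 µg/ml, and 5.43, 5.53 and 5.19 at 250 µg/ml. Every treated array was above every control. The differences were small, 0.29 ± 0.12 (95% interval 0.03 to 0.56, adjusted p = 0.310) and 0.36 ± 0.12 (0.10 to 0.63, adjusted p = 0.181). ABCB9, the lysosomal peptide transporter, read 3.47, 3.61 and 3.52 in the controls, 3.64, 3.54 and 3.54 at 100 µg/ml, and 3.87, 3.70 and 3.70 at 250 µg/ml. Its arrays at 250 µg/ml lay above both other groups, with a difference from vehicle of 0.22 ± 0.096 (adjusted p = 0.295). ABCB10, a mitochondrial protein linked to haem synthesis, differed by 0.10 and -0.05. Of 10 listed genes of mitochondrial iron-sulphur and haem synthesis, 9 were measured and 0 passed the test. The largest differences at 250 µg/ml were those of FECH (1.22 ± 0.30, adjusted p = 0.102), which inserts iron into haem, and ALAS1 (0.92 ± 0.23, adjusted p = 0.101), the first enzyme of the pathway.

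In subfamily D, ABCD3, which imports fatty acyl groups into peroxisomes and is named here after its values were seen, read 7.34, 7.27 and 7.61 in the controls, 8.27, 7.97 and 7.69 at 100 µg/ml, and 8.56, 8.01 and 7.38 at 250 µg/ml. All arrays at 100 µg/ml lay above the controls, and array 3 at 250 µg/ml lay among them. The difference was 0.57 ± 0.28 (adjusted p = 0.390) and 0.58 ± 0.28 (adjusted p = 0.343), and without the treated arrays numbered 3 it was 0.72 and 0.88. Without array 1 of the dose it was 0.43 and 0.29. ABCD4, the lysosomal cobalamin transporter, and ABCD2 lay between -0.20 and -0.07. Of 8 listed peroxisome partners, 6 were measured and 0 passed, with HSD17B4 (0.49) and PEX19 (0.36) farthest above vehicle at 250 µg/ml.

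The members that act on ribosomes were ABCE1, ABCF2 and ABCF3. ABCE1, which splits ribosomes after termination, read 8.07, 8.39 and 8.38 in the controls, 9.03, 8.65 and 8.63 at 100 µg/ml, and 9.26, 8.91 and 8.23 at 250 µg/ml. All arrays at 100 µg/ml were above the controls, and array 3 at 250 µg/ml fell within them. The difference was 0.49 ± 0.25 (adjusted p = 0.406) and 0.52 ± 0.25 (adjusted p = 0.337). Leaving out the treated arrays numbered 3 gave 0.56 and 0.81, and leaving out array 1 of the dose gave 0.36 and 0.29. ABCF2 read 6.50, 6.05 and 5.71 in the controls, 6.63, 6.62 and 6.56 at 100 µg/ml, and 6.61, 6.85 and 6.48 at 250 µg/ml. Treated arrays stood above the top control except array 3 at 250 µg/ml, which was just under it. For ABCF2 the difference was 0.52 ± 0.19 (adjusted p = 0.285) and 0.56 ± 0.19 (adjusted p = 0.208). It became 0.54 and 0.65 without the treated arrays numbered 3, and 0.33 and 0.37 without control 3.

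ABCF3 read 6.89, 6.89 and 6.84 in the controls, 6.78, 6.86 and 6.91 at 100 µg/ml, and 7.05, 7.25 and 7.22 at 250 µg/ml. The groups at 0 and 100 µg/ml overlapped, and every array at 250 µg/ml lay above both. Its difference was -0.02 ± 0.095 at 100 µg/ml and 0.30 ± 0.095 (adjusted p = 0.181) at 250 µg/ml. Of 8 listed partners in ribosome recycling and initiation, 6 were measured and 0 passed. EIF2AK4, the kinase whose yeast counterpart works with an ABCF protein, was farthest from vehicle at 250 µg/ml (0.78 ± 0.21, adjusted p = 0.122).

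The comparison of 250 with 100 µg/ml asked whether the higher dose differed from the lower. In limma's test 0 of 39 members and 0 of 14207 genes passed, and 262 genes had an unadjusted p under 0.05. This fit did not pair arrays by number, so its SEs and intervals hold the spread between numbers. With a term for array number over all 3 groups, the count was again 0 genes. ABCF3 was 0.32 ± 0.095 higher at 250 µg/ml (95% interval 0.10 to 0.54, adjusted p = 1.00, unadjusted p = 0.00897), and the difference within arrays of 1 number was 0.26, 0.39 and 0.31. Arrays at 250 µg/ml lay above those at 100 µg/ml for ABCB9, ABCC2 and ABCF3 (7.69% of members, all higher), beside 6.17% of all genes (3.32% higher, 2.86% lower). ABCC2 was below the lower quartile on all 9 arrays. Its lowest array at 250 µg/ml read 2.699, and its highest at 100 µg/ml read 2.689. ABCC3 differed by 0.09 ± 0.30 between doses (-0.60 to 0.77), ABCA1 by 0.22 ± 0.14 (-0.09 to 0.53) and ABCB5 by -0.60 ± 0.80 (-2.44 to 1.23). The intervals of ABCC3 and ABCB5 reach well past 0 on both sides and do not show that the doses act alike. Within arrays numbered 1, 2 and 3, ABCB5 differed by -0.29, -0.25 and -1.27, lower at 250 µg/ml in each. The same differences were mixed in sign for ABCC3 (-0.22, -0.10 and 0.58) and for ABCA1 (-0.01, 0.24 and 0.43).

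Of the other ABC proteins that carry older symbols, TAP1, TAP2 and CFTR were measured. TAP2, a subunit of the peptide transporter for antigen presentation, read 4.16, 4.11 and 4.32 in the controls, 5.18, 4.99 and 4.66 at 100 µg/ml, and 5.50, 5.35 and 4.95 at 250 µg/ml. All treated arrays were above the controls, and TAP2 rose at 250 µg/ml by 1.07 ± 0.18 (adjusted p = 0.049). That call was kept in 8 of 17 alternatives, with adjusted p from 0.0207 to 0.196, and was lost on leaving out controls 1 or 2, or arrays 1 or 2 of either dose, after centring or quantile normalization, and with only the 6 arrays of the comparison. TAP1, the partner subunit, differed by 0.63 ± 0.29 (adjusted p = 0.366) and 1.22 ± 0.29 (adjusted p = 0.093), and the chloride channel gene CFTR by -0.20 and -0.24.

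Sensors that regulate pump genes and uptake carriers that work against the pumps were also listed. Of 10 sensors, 7 were measured and 0 passed. AHR, the receptor for aromatic hydrocarbons, differed by -0.61 ± 0.15 (adjusted p = 0.199) and -0.65 ± 0.15 (adjusted p = 0.090). These values are the RNA level of the receptor gene and do not measure the receptor's activity. Of 12 uptake and exchange carriers, 8 were measured and 1 passed, at 250 µg/ml. SLCO1A2, an organic anion uptake carrier, read 7.94, 7.64 and 8.24 in the controls, 7.03, 7.32 and 6.96 at 100 µg/ml, and 6.33, 6.35 and 6.24 at 250 µg/ml. The 3 groups did not overlap, and SLCO1A2 fell by 1.63 on the log2 scale at 250 µg/ml (SE 0.16, adjusted p = 0.00889), with a difference of -0.84 ± 0.16 (adjusted p = 0.146) at 100 µg/ml. The call at 250 µg/ml was lost without array 2 of that dose and with only the 6 arrays of the comparison (adjusted p = 0.072 in each).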

How the data were processed

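Total RNA was hybridised to Affymetrix exon arrays after whole-transcript sense-strand labelling, per the labels' protocols. The deposited log2 values, 1 per transcript-level probe set, were made by the authors with RMA and Partek on genome build hg18, per the submitters' processing notes, with no versions or settings given there. RMA removes background and scales arrays together, which compresses differences of dim genes. Of 17629 probe sets, 14378 named 1 gene, 2405 several and 846 none. Symbols were updated through RefSeq (GRCh38.p14), which lacked 28. For the 169 genes with several probe sets the one with the highest mean was used.

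All 9 arrays were fitted with limma 3.58.1 in R 4.3.3, 1 mean per group, with Benjamini-Hochberg adjustment over 14207 genes and a threshold of 0.05. Members, role groups and gene lists were chosen with earlier results of these data known, so members' counts and medians are given without a test. Values on all arrays are given for members with an unadjusted p under 0.05 and all treated arrays outside the controls, and for ABCA1, ABCA4, ABCB1, ABCC1, ABCC3, ABCE1 and ABCG2 whatever their values. Of each list, up to 4 genes are named, those past the threshold first and then the largest differences at 250 µg/ml. Of the rest, the members at either end of each role group's range are named by that rule. ABCA5, ABCA9 and ABCD4 and the genes so marked in the text were chosen after their values were seen.

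Deviations from the group means of same-numbered arrays at 100 and 250 µg/ml correlated at 0.60, 0.44 and 0.68, so on the data alone the numbers may pair these doses. The main fit did not use this pairing, and the replicate block setting applied the numbers to all 3 groups. With the controls the correlations ran from -0.14 to 0.26, so no pairing was assumed. Alternatives were median centring, quantile normalization, no dim genes, the mean of a gene's probe sets, a replicate block, the 6 arrays of a comparison, array weights and leaving out each array, and, added after seeing the data, leaving out both treated arrays numbered 3. No detection calls were used, and the number of arrays limits the precision.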

Additional observations from a re-analysis of the deposited data

How the results depend on the processing

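With 3 arrays a group, the spread between arrays sets what could be called. The 39 members gave 0 calls in each comparison. At 100 µg/ml leaving out 1 array gave 0 to 1 (ABCA2, without control 3), and leaving out the treated arrays numbered 3, added after seeing the data, gave 1 (ABCB5). At 250 µg/ml quantile normalization and array weights each gave 1 (ABCA1), leaving out 1 array gave 0 to 1 (ABCC3 without control 1, ABCA2 without control 3), and leaving out both arrays numbered 3 gave 1 (ABCB5). Between doses the count was 0 in all 17 alternatives. The replicate block changed no member's call. Over all genes it moved the count from 9 to 3 at 100 µg/ml and from 78 to 122 at 250 µg/ml. The other counts at 100 µg/ml were 4 after quantile normalization, 1 with only the 6 arrays, 73 with array weights, 1 to 57 on leaving out 1 array and 47 without the arrays numbered 3. At 250 µg/ml they were 153 after centring, 129 after quantile normalization, 130 without dim genes, 1 with only the 6 arrays, 234 with array weights, 4 to 296 on leaving out 1 array (lowest without array 2 of 250 µg/ml, highest without control 3) and 167 without the arrays numbered 3. The median over members became 0.16 and 0.26 without dim genes, a setting that leaves 22 members.

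The signs of the following differences turned, and the cause was not tested. Against vehicle at 100 µg/ml, ABCA4 became 0.073 after quantile normalization and 0.026 without the arrays numbered 3, and leaving out 1 array gave -0.12 to 0.026 for ABCA4, -0.57 to 0.28 for ABCC1 and -0.053 to 0.011 for ABCF3. At 250 µg/ml, ABCA4 became 0.020 after quantile normalization, and ABCC1 became -0.0070 after centring, -0.036 after quantile normalization, -0.14 without the arrays numbered 3 and -0.53 to 0.33 on leaving out 1 array. Between doses, ABCC3 became -0.059 with array weights, and without the arrays numbered 3 the values were -0.16 for ABCC3, -0.020 for ABCC1, -0.019 for ABCA10 and -0.031 for ABCA6. Leaving out 1 array there gave -0.020 to 0.10 for ABCA10, -0.12 to 0.029 for ABCA4, -0.020 to 0.12 for ABCA6, -1.21 to 0.34 for ABCB5, -0.00075 to 0.17 for ABCB8, -0.12 to 0.16 for ABCC1, -0.054 to 0.20 for ABCC3, -0.20 to 0.32 for ABCE1, -0.058 to 0.13 for ABCF2 and -0.46 to 0.31 for ABCG2.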

Other observations

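Promoter windows of 250 bases were listed in the RefSeq table for 31 of the 39 members, 46 windows in all, and windows of 1 gene can overlap. The E-box CACGTG occurred in 7 windows (15.2%, beside 6.34% of all 35116 windows), from ABCA1, ABCA9, ABCA12, ABCB9, ABCC10 and ABCG2. The antioxidant response core TGACNNNGC occurred in 7 windows (15.2%, beside 10.9%), from ABCA2, ABCA3, ABCB9, ABCC4, ABCC10, ABCD4 and ABCG4. The xenobiotic response core GCGTG occurred in 20 windows (43.5%, beside 32.2%), and the GC box GGGCGG in 22 (47.8%, beside 42.6%). CCAAT occurred in 10 (21.7%, beside 32%) and TATAAA in 6 (13%, beside 10.7%). These shares were not tested and say nothing of binding.

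Markers of other cell types were also read. COL1A1, a fibroblast collagen gene, read 6.55 in control 2 and between 3.50 and 3.75 on the other 8 arrays, and control 2 was also the lowest array for ABCC3 and ABCC4. The other measured fibroblast genes did not stand out there: COL1A2 read 3.45 in control 2 beside 3.70 and 3.43 in the other controls, and DCN read 3.07 beside 3.09 and 2.91. The summed log2 level of the 3 genes ran from 9.89 to 13.1 in controls. The lower dose gave 9.65 to 10.3 and the higher 9.54 to 9.88. The lysosomal gene CD68 of the leukocyte list read 8.31 to 10.09, lowest in control 2, while the pan-leukocyte gene PTPRC was below the lower quartile on all 9 arrays. Of the endothelial markers, PECAM1 and CDH5 were below it on all 9 arrays. The part of these markers in the ABC differences was not tested.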
